A study of Mus musculus with 30 samples.

Results

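Transcript levels of 7 adrenergic receptor genes, Adra1a, Adra1b, Adra1d, Adra2a, Adra2c, Adrb1 and Adrb3, were followed across heart and white adipose tissue of mice on a diet that strains the heart. They were taken by name from a table of 36558 Ensembl gene IDs, and all 7 were found. Other receptors of the family are not described here. All mice were male C57BL/6J, had been injected with an AAV8 vector, ate a high-fat diet (HFD) for 7 weeks together with l-NAME, which blocks nitric oxide synthesis, and were 15 weeks old at tissue collection. The vector was AAV8-F11, which carries the gene of coagulation factor XI, or AAV8-GFP, which carries a fluorescent reporter protein, and AAV8 is known to reach mainly the liver. No mice without vector or on a plain diet were included, and the promoter in the vector and the adipose depot are not stated in the labels. The libraries comprised 7 F11 hearts, 6 GFP hearts, 8 F11 adipose samples and 8 GFP adipose samples. Nothing in the labels ties a heart to an adipose sample or says that libraries came from separate mice, so p-values measure only the spread between these libraries.

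Adrenergic receptors sit in the cell membrane and bind noradrenaline released by sympathetic nerves and adrenaline from the adrenal gland. Alpha1 receptors couple to Gq proteins and phospholipase C, alpha2 receptors to Gi proteins that lower cAMP, and beta receptors to Gs proteins that raise cAMP and activate protein kinase A. In heart muscle the beta1 receptor (Adrb1) is the classical receptor for increases in rate and force, and alpha1 receptors (Adra1a, Adra1b) are known for roles in growth and contraction. In rodent fat cells the beta3 receptor (Adrb3) is the classical trigger of lipolysis.

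Of the 7 genes, 4 had an entry in the RefSeq promoter table, with 5 start sites in all. The 250 bases before the start are shown for Adrb1 and for both starts of Adra1b, because these genes were more abundant in heart than in adipose tissue and yet moved together with Adrb3 within adipose tissue. Sequences are from GRCm38.p6, 5′ to 3′ on the strand of the gene. Adrb1 is at chr19:56721867-56722116 on the plus strand, and Adra1b is at chr11:43836490-43836739 and chr11:43901238-43901487 on the minus strand. Of the remaining genes on GRCm38, Adra1a lies at chr14:66635251-66771168 (plus strand), Adra2a at chr19:54044151-54048982 (plus strand) and Adra2c at chr5:35278319-35281763 (plus strand). Capitals mark matches to any of 5 short motifs on either strand, namely the E-box CACGTG, the cAMP response element TGACGTCA, the AP-1 motif TGAGTCA, the GC box GGGCGG and the CCAAT box.
Adrb1: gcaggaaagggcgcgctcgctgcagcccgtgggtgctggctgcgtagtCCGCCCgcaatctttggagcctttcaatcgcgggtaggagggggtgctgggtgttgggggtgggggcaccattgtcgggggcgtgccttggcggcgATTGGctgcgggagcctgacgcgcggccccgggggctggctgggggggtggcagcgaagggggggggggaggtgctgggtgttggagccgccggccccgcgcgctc
Adra1b, inner start: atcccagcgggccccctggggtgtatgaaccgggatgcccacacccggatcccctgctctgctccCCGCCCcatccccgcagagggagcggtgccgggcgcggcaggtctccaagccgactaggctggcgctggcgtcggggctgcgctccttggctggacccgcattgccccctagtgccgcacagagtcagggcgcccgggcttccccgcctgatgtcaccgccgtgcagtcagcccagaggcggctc
Adra1b, outer start: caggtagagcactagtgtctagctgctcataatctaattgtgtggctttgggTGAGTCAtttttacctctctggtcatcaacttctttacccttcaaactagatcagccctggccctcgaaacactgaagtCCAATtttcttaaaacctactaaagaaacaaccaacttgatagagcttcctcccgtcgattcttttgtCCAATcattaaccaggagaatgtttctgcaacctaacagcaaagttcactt
The Adrb1 window held 1 GC box and 1 CCAAT box, both read on the other strand, and its GC content was 74.0%. The inner Adra1b window held 1 GC box, also on the other strand, with a GC content of 72.8%. The outer Adra1b window held 1 AP-1 motif and 2 CCAAT boxes, with a GC content of 41.6%. Over all 32817 promoter windows of the table, 32.7% held the GC box, 33.8% the CCAAT box, 4.46% the AP-1 motif, 6.02% the E-box and 1.55% the cAMP response element. None of these 3 windows held the E-box or the cAMP response element. Of the remaining windows, those of Adra2a and Adra2c each held 1 E-box. No motif searched was common to the 3 printed windows.

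Each tissue carried the markers of its label. Summed markers of cardiomyocytes were 62580 to 71590 counts per 1000000 (CPM, on 1 TMM scale for all libraries) in F11 hearts and 54180 to 58000 CPM in GFP hearts, and summed markers of white adipocytes were 9759 to 16550 CPM in F11 and 12090 to 16330 CPM in GFP adipose samples. Total estimated counts, in units of 1000000, were 28.06 to 33.02 in F11 hearts, 25.75 to 30.59 in GFP hearts, 16.76 to 26.33 in F11 adipose samples and 15.95 to 22.53 in GFP adipose samples. Coagulation factor XI transcripts were 4.87 ± 3.53 CPM in F11 adipose samples and 0.826 ± 1.21 CPM in GFP adipose samples (SD, n = 8 each, 2-sided exact permutation test, p = 0.00295), while hearts held 3 counts in all 7 F11 libraries and 13 in all 6 GFP libraries. The adipose library L140 (GFP) held 5577 CPM of cardiomyocyte markers and L142 (F11) held 4084 CPM of epididymis markers, so results in adipose tissue were also computed without both. Summed hepatocyte markers were 3257 CPM in L145 and 1831 CPM in L146 (F11) and 3509 CPM in L136 and 1017 CPM in L137 (GFP), against 9.08 to 380 CPM in the other F11 and 33.5 to 264.5 CPM in the other GFP adipose samples. Factor XI transcripts were highest in the same libraries, at 11.96 CPM in L146 and 6.82 CPM in L145 with F11, and 3.496 CPM in L136 and 1.69 CPM in L137 with GFP. Without these 4 libraries they were 3.37 ± 1.98 CPM in F11 and 0.236 ± 0.205 CPM in GFP adipose samples (SD, n = 6 each, 2-sided exact permutation test, p = 0.00649).

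In heart, Adra1b, Adrb1 and Adra1a made up most of the receptor transcripts measured, and Adrb3 and Adra2a were close to the detection limit. Per kb of exon, Adra1b was first in every library, at 12.1 ± 1.43 CPM per kb in F11 hearts and 14.9 ± 1.38 CPM per kb in GFP hearts (SD, n = 7 and 6). Adrb1 followed at 8.005 ± 0.747 CPM per kb in F11 hearts and 8.40 ± 1.10 CPM per kb in GFP hearts. Adra1a came next, at 6.06 ± 1.07 and 6.29 ± 1.09 CPM per kb in F11 and GFP hearts. The ranges of Adra1b and Adrb1 did not overlap in either group, whereas those of Adrb1 and Adra1a did. The fourth, Adra1d, another Gq-coupled alpha1 receptor, was below the range of Adra1a at 2.27 ± 0.138 CPM per kb in F11 hearts and 2.18 ± 0.189 CPM per kb in GFP hearts. Adra2c, Adrb3 and Adra2a were each under 0.2 CPM per kb on average.

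As a share of the summed level per kb of the 7 genes, Adra1b took 42.1 ± 3.34% in F11 hearts and 46.4 ± 2.09% in GFP hearts. Adrb1 took 28.1 ± 3.46% and 26.1 ± 1.51%, and Adra1a 21.1 ± 2.66% and 19.6 ± 2.35%, in F11 and GFP hearts. The order of the alpha1 receptors depends on the length used for Adra1a, whose exons span 8728 bases in union but 4282 bases in its longest transcript. With the longest transcript of each gene, Adra1b and Adra1a both had a share of 33.8% in F11 hearts, and they had 37.7% and 31.9% in GFP hearts. The alpha1 class together was 71.1 ± 3.40% in F11 hearts and 72.8 ± 1.80% in GFP hearts. These shares describe RNA, not receptor protein, and were not tested.

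**Figure D1:**
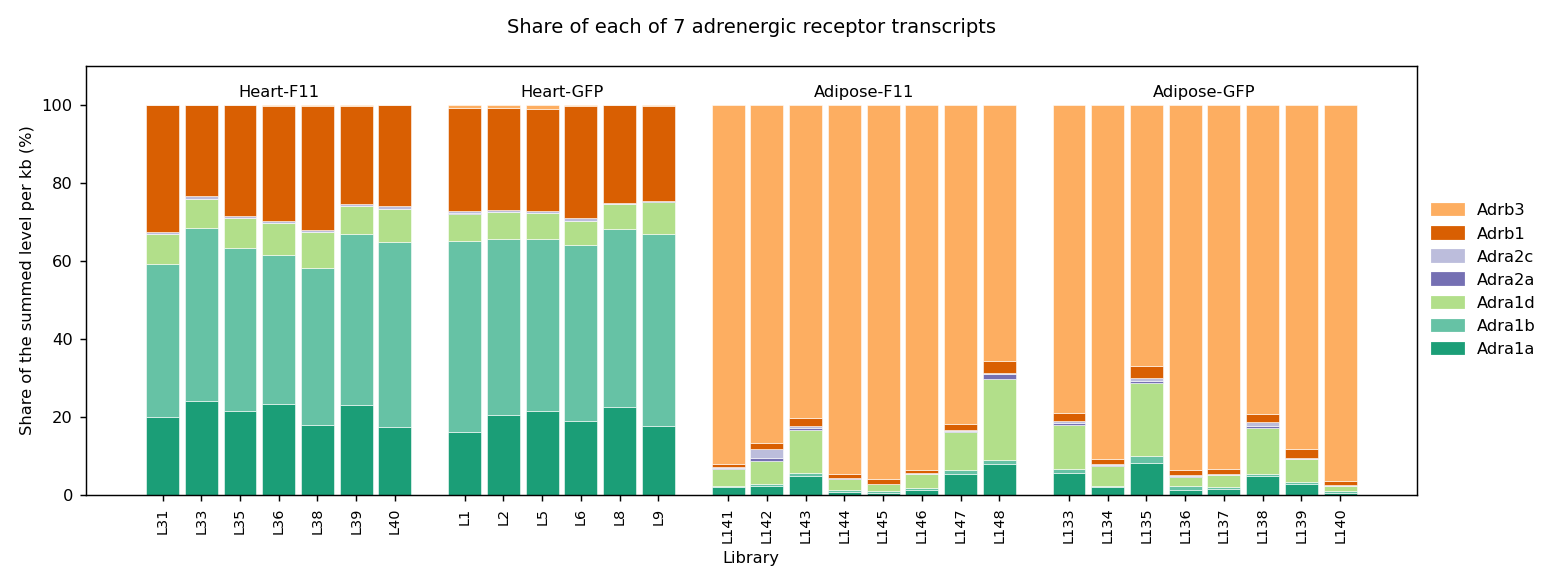
Stacked bars give, for each library along the horizontal axis, the share in percent of each receptor in the summed CPM per kb of the 7 genes (vertical axis). The hearts are mostly Adra1b, Adrb1 and Adra1a, and in adipose samples Adrb3 takes 65.8 to 95.9% with F11 and 67.0 to 96.5% with GFP.

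In adipose tissue Adrb3 was by far the most abundant receptor transcript and also the most variable in relation to its level apart from Adra2c in F11 samples. Its lowest, median and highest levels were 34.96, 176 and 597 CPM in F11 samples and 44.1, 186 and 632 CPM in GFP samples. The groups overlapped almost completely, and within a group the highest sample exceeded the lowest 17.1-fold with F11 and 14.3-fold with GFP. Adrb3 took 86.3 ± 10.2% of the summed level per kb in F11 and 86.0 ± 10.1% in GFP samples (SD, n = 8 each). A gene on the opposite strand, Gm45470, overlaps 11647 bases of the Adrb3 locus (chr8:27225776-27250616, minus strand). That span includes introns, since the exons of Adrb3 cover 3376 bases, and the overlap of exons is not given here. Because no strand setting is given, reads from any exon sequence that the pair shares cannot be told apart.

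Adra1d was second in adipose tissue, at 3.37 ± 0.508 CPM per kb in F11 and 3.05 ± 0.448 CPM per kb in GFP samples, and did not overlap with Adrb3 above it or Adra1a below it. Adra1a had 1.30 ± 0.382 CPM per kb in F11 and 1.41 ± 0.207 CPM per kb in GFP samples. Adrb1 had 0.949 ± 0.619 CPM per kb in F11 and 1.04 ± 0.556 CPM per kb in GFP samples, and its range overlapped with that of Adra1a. Adra1b averaged 0.431 CPM per kb with F11 and 0.433 CPM per kb with GFP, a level below that of Adrb1 in all 16 libraries. The alpha2 receptors were last, with Adra2c at 0.187 and Adra2a at 0.166 CPM per kb in F11 samples and at 0.173 and 0.135 CPM per kb in GFP samples. The alpha2 class, which in fat cells is known to oppose lipolysis, took 0.821 ± 0.943% of the summed level in F11 and 0.685 ± 0.505% in GFP samples. The F11 averages rested on L142, the library with epididymis transcripts. Adra2c was above Adra2a in 2 of 8 F11 libraries, and without L142 Adra2c was below Adra2a on average, at 0.0918 ± 0.0595 and 0.151 ± 0.0343 CPM per kb, and the alpha2 class took 0.525 ± 0.469% (n = 7).

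**Figure D2:**
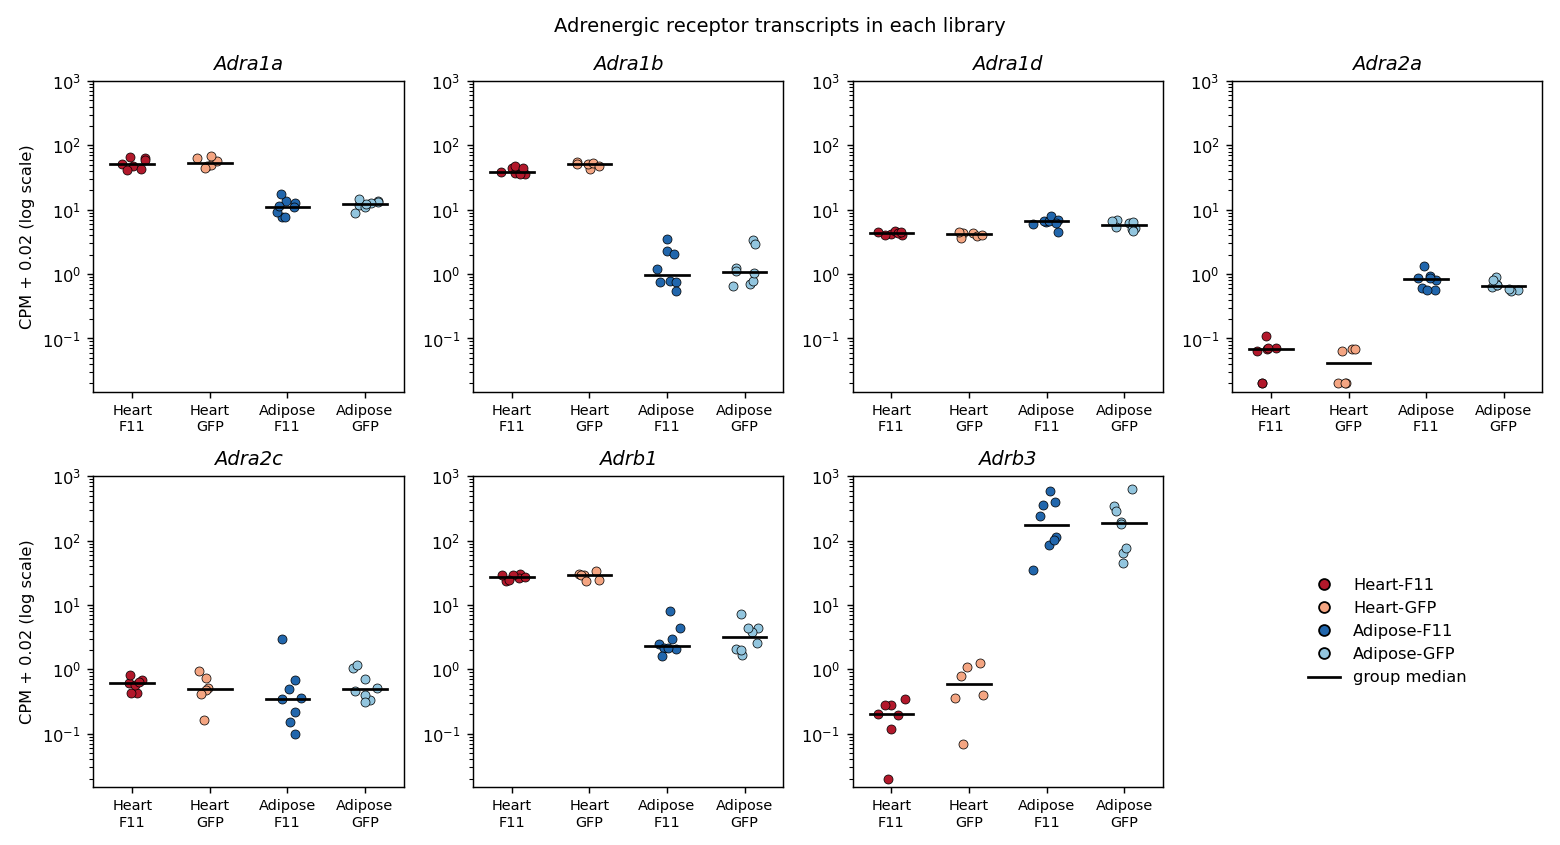
Each panel shows 1 receptor, with CPM plus an offset of 0.02 on a logarithmic vertical axis, 1 point per library and a line at the group median. Adra1b, Adrb1 and Adra1a are higher in hearts, Adrb3 and Adra2a are higher in adipose samples, and the points of F11 and GFP overlap in every panel.

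The heart was compared with adipose tissue within each vector group in 1 edgeR quasi-likelihood fit over all libraries. Tissue was not separable from anything else that differed between the 2 sets of libraries, such as preparation. Of 16526 genes tested, 81.6% passed an adjusted p of 0.05 in F11 mice and 80.2% in GFP mice, so the 6 of 7 receptors that passed in each are near the background. Among the 6, Adrb3 and Adra2a met the filter on low counts only through the adipose samples. Higher in heart were Adra1b, Adrb1 and Adra1a, beside 36.6% of all genes in F11 mice and 36.8% in GFP mice, and lower were Adrb3, Adra2a and Adra1d, beside 45% and 43.4%. The ranges of the tissues did not overlap for 5 of 7 receptors in F11 mice and 6 of 7 in GFP mice, beside 59% and 58.4% of all genes. The receptors' median was -0.15 on the log2 scale in F11 mice and -0.17 in GFP mice, beside -0.13 and -0.11 over all genes.

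Adra1b showed the largest positive difference. Its lowest, median and highest levels were 36.3, 38.1 and 47.7 CPM in F11 hearts, against 0.520, 0.965 and 3.46 CPM in F11 adipose samples. In GFP mice they were 42.3, 51.7 and 55.3 CPM in hearts, against 0.644, 1.06 and 3.37 CPM in adipose samples. No adipose sample reached any heart. The log2 difference, heart over adipose, was 4.80 (SE 0.35, adjusted p = 8.02e-13) in F11 mice and 5.13 (SE 0.37, adjusted p = 4.05e-13) in GFP mice.

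Adrb1 was also higher in every heart than in any adipose sample. Its lowest, median and highest levels were 23.5, 27.4 and 30.5 CPM in F11 hearts, against 1.60, 2.31 and 7.92 CPM in F11 adipose samples. In GFP mice the levels were 23.5, 29.5 and 33.1 CPM in hearts, against 1.63, 3.19 and 7.31 CPM in adipose samples. The log2 difference was 3.08 (SE 0.30) in F11 mice and 3.04 (SE 0.30) in GFP mice, with adjusted p of 2.50e-10 and 5.55e-10. Adra1a showed a smaller difference, with 42.2, 51.0 and 64.9 CPM in F11 hearts against 7.62, 11.1 and 17.6 CPM in F11 adipose samples. In GFP mice it had 44.5, 52.9 and 67.7 CPM in hearts against 9.04, 12.5 and 14.9 CPM in adipose samples, again without overlap. Its log2 difference was 2.25 (SE 0.15) in F11 and 2.17 (SE 0.16) in GFP mice.

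Adra1d was the alpha1 receptor with the opposite direction, and the difference was small. It had 3.99, 4.26 and 4.74 CPM in F11 hearts against 4.48, 6.56 and 7.88 CPM in F11 adipose samples, where L142 alone fell within the heart range. In GFP mice it had 3.60, 4.23 and 4.54 CPM in hearts against 4.65, 5.74 and 6.88 CPM in adipose samples, without overlap. The log2 difference was -0.55 (SE 0.10, adjusted p = 8.70e-06) in F11 mice and -0.46 (SE 0.10, adjusted p = 0.00018) in GFP mice. Within the alpha1 class, then, a pair of subtypes was higher in heart and the third was lower. The locus of Adra1d (chr2:131545850-131562283, minus strand) overlaps the opposite-strand gene Gm14285 over 670 bases.

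Adrb3 and Adra2a were nearly absent from heart. Adrb3 gave 27 counts over 7 F11 hearts against 55818 over 8 F11 adipose samples, a heart over adipose ratio per scaled count of 0.000703 (exact 95% interval 0.000464 to 0.00102, counting error only). In GFP mice it gave 79 counts in hearts against 42060 in adipose samples, a ratio of 0.00296 (0.00235 to 0.00370). Adra2a gave 6 counts in F11 hearts against 169 in F11 adipose samples, a ratio of 0.0516 (0.0187 to 0.115), and 3 in GFP hearts against 127 in GFP adipose samples, a ratio of 0.0373 (0.00759 to 0.111). Adra2a had no count in 2 of 7 F11 hearts and 3 of 6 GFP hearts, where a count of 0 allows up to 0.168 CPM. Both genes passed the edgeR test in each vector group, but entered it only through their adipose counts, so the pass is not separate support.

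Adra2c, which in nerve endings restrains noradrenaline release, was the receptor that did not pass the test between tissues. It had 0.404, 0.587 and 0.792 CPM in F11 hearts against 0.0776, 0.332 and 2.95 CPM in F11 adipose samples, and 0.145, 0.475 and 0.925 CPM in GFP hearts against 0.289, 0.470 and 1.13 CPM in GFP adipose samples. The groups overlapped. The log2 difference was -0.15 (SE 0.53, adjusted p = 0.805) in F11 mice and -0.17 (SE 0.56, adjusted p = 0.792) in GFP mice. The highest adipose value, 2.95 CPM, was that of L142, the library with epididymis transcripts. Without L142 the F11 difference was 0.88 with an adjusted p of 0.0457, and without both L140 and L142 it was 0.91 with an adjusted p of 0.0416.

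From 10 lists, 81 genes were tested that act after the receptors, switch them off or handle the transmitter. Of these, 34 (42.0%) were higher and 33 (40.7%) were lower in heart than in adipose tissue of GFP mice. Together these are 82.7%, near the 80.2% called among all genes. Among all genes, 36.8% were called higher and 43.4% lower, so counts within single lists are to be read beside these shares. All 7 tested genes of the lipolysis machinery were lower in heart, with log2 differences of -8.14 (SE 0.43) for Plin1, the coat protein of lipid droplets, -3.41 (SE 0.21) for Lipe, hormone-sensitive lipase, and -2.58 (SE 0.12) for Mgll, monoacylglycerol lipase. Of 7 cardiac substrates of protein kinase A, 6 were higher and 1 was lower in heart, among them Pln (phospholamban, 6.33, SE 1.02) and Ryr2 (the calcium release channel, 6.91, SE 0.89). Without L140, which held cardiac transcripts, these values were 10.02 and 9.60.

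Enzymes that make and break cAMP were split by isoform, beside 36.8% of all genes called higher and 43.4% called lower in heart. Of 10 Gs and adenylyl cyclase genes, 4 were higher in heart and 3 lower, with Adcy1 at 4.03 (SE 0.54) and Adcy3 at -2.34 (SE 0.24) on the log2 scale. Of 9 cAMP phosphodiesterases, 5 were higher and 2 lower, and the pair of type-3 enzymes went opposite ways, Pde3a at 3.75 (SE 0.13) and Pde3b at -4.67 (SE 0.25). Of 12 protein kinase A subunits and anchors, 8 were higher and 3 lower, with the regulatory subunit Prkar2b at -7.23 (SE 0.31) and the anchor Akap6 at 6.58 (SE 0.60). Of 5 Gi protein genes, 4 were lower in heart and 1 was higher, led by Gnai1 at -5.80 (SE 0.17). Of 7 Gq and phospholipase C genes, 4 were lower and 1 was higher, with Gnaq at -1.19 (SE 0.05).

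Genes that switch receptors off or handle the transmitter were mixed, as were all genes, with 36.8% called higher and 43.4% called lower in heart. Of 7 receptor kinase and arrestin genes, 3 were lower in heart and 1 was higher, with Arrb1 and Arrb2, which uncouple phosphorylated receptors, at -1.74 (SE 0.09) and -1.78 (SE 0.16) and Grk5 at 0.53 (SE 0.11). Of 9 tested genes of catecholamine handling, 4 were higher and 4 lower, with Dbh, which makes noradrenaline, at 5.73 (SE 0.76) and Maoa, which breaks it down, at -3.20 (SE 0.24). Of 8 tested cAMP-responsive genes, 4 were higher and 2 lower, with Ppargc1a at 5.19 (SE 0.36) and Fosb at -1.40 (SE 0.27). Without L140, Akap6 was at 8.28, Dbh at 9.48 and Ppargc1a at 5.85. Dbh had a median of 3.05 CPM in GFP hearts and 0 CPM in GFP adipose samples, so the size of its difference is not well determined.

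The vectors were then compared within each tissue, F11 over GFP. In heart, 128 of 14684 genes passed (0.872%) and none of the 5 receptors tested did. At an unadjusted p of 0.05, 1831 genes (12.5%) and 1 of the 5 receptors, Adra1b, passed. In adipose tissue, none of 15229 genes passed (0%), 638 (4.19%) had an unadjusted p under 0.05, and none of the 7 receptors was among them. DESeq2 called 377 genes in heart and 6 in adipose tissue, and limma voom called 196 in heart and 0 in adipose tissue. The ranges of F11 and GFP overlapped for every receptor in both tissues, whereas they were apart for 1.02% of genes in heart and 0.0263% in adipose tissue. The median difference of the receptors was -0.06 in heart and 0.08 in adipose tissue on the log2 scale, beside -0.01 and -0.00 over all genes.

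Adra1b was the receptor nearest to the threshold in heart. Its levels were 36.3, 38.1 and 47.7 CPM (lowest, median, highest) in F11 hearts and 42.3, 51.7 and 55.3 CPM in GFP hearts, and averaged 40.8 ± 4.82 CPM in F11 hearts and 50.3 ± 4.66 CPM in GFP hearts (SD, n = 7 and 6). The groups overlapped, with the GFP hearts L2 and L9 inside the F11 range. The log2 difference was -0.30 (SE 0.08, 95% interval -0.46 to -0.14), with an adjusted p of 0.0776 by edgeR, so it did not pass. By DESeq2 the adjusted p was 0.0155, and by edgeR without L2 or without L39 it was 0.0302 and 0.0367. Summed cardiomyocyte markers and clock genes also differed between these hearts. Most of that sum was Myh6, with medians of 41310 CPM in F11 hearts and 32580 CPM in GFP hearts, without overlap. The ranges of Tnnt2, Tnni3, Actc1, Ryr2 and Myl2 overlapped between the vector groups. The clock gene Dbp had 119 ± 15.6 CPM in F11 hearts and 61.7 ± 9.71 CPM in GFP hearts, and Arntl had 5.05 ± 1.37 CPM in F11 hearts and 16.2 ± 2.30 CPM in GFP hearts. Their part in the Adra1b difference was not tested.

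Adrb1, the main cardiac beta receptor, averaged 27.1 ± 2.53 CPM in F11 hearts and 28.4 ± 3.73 CPM in GFP hearts. The log2 difference of -0.07 (SE 0.08, 95% interval -0.25 to 0.10, adjusted p = 0.787) was smaller than the spread between libraries. Adra1a averaged 52.9 ± 9.36 CPM in F11 and 54.9 ± 9.55 CPM in GFP hearts, with a log2 difference of -0.06 (95% interval -0.34 to 0.23) that turned to 0.01 without L8. Adra1d had a log2 difference of 0.05 (95% interval -0.13 to 0.23) and Adra2c of 0.13 (95% interval -0.52 to 0.77). None of these passed the test.

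**Figure D3:**
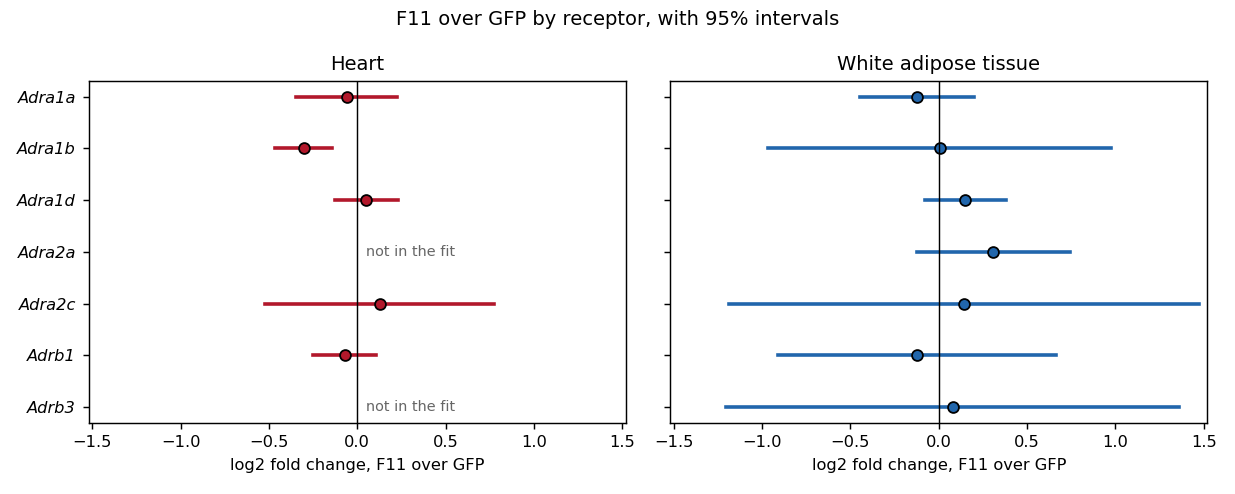
Points are log2 fold changes, F11 over GFP, from edgeR in heart (left) and white adipose tissue (right), and lines are 95% intervals. In heart the interval of Adra1b (-0.46 to -0.14) excludes 0 without passing the adjusted threshold, and in adipose tissue every interval covers 0. Adra2a and Adrb3 were too low in heart for the fit.

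Adra2a and Adrb3 did not pass the filter on low counts in heart and were compared by a 2-sided exact permutation test over 1716 splits. Adrb3 had 0, 0.180 and 0.322 CPM (lowest, median, highest) in F11 hearts and 0.0497, 0.581 and 1.24 CPM in GFP hearts. Mean levels were 0.184 ± 0.109 CPM in F11 hearts and 0.642 ± 0.46 CPM in GFP hearts, a difference of -0.458 CPM (exact permutation p = 0.0186, not adjusted). The groups overlapped, and the 5 highest values were all GFP. Among fat cell transcripts, Adipoq had a median of 0.404 CPM in F11 hearts and 1.66 CPM in GFP hearts, Plin1 1.17 and 3.06 CPM, Cidec 0.538 and 1.43 CPM, and Ucp1 0 and 1.26 CPM. Lep and Otop1 also had lower medians in F11 hearts, whereas those of Fabp4 (446 CPM in F11 and 433 CPM in GFP hearts), Pparg (12.2 and 11.2 CPM) and Cidea (28.03 and 26.6 CPM) were not lower. Summed white adipocyte markers were 424.3 to 691.3 CPM in F11 and 417.1 to 648.3 CPM in GFP hearts, and summed brown adipocyte markers 223.4 to 332.8 CPM in F11 and 248.2 to 292.2 CPM in GFP hearts. Most of the white sum was Fabp4. Most of the brown sum was Cox8b, with medians of 236.5 CPM in F11 and 239.2 CPM in GFP hearts. The sums therefore say little about the other markers in them. F11 hearts had 0.147 to 1.29 CPM of Adipoq and 0 to 0.368 CPM of Ucp1, and GFP hearts 0.0497 to 3.47 CPM of Adipoq and 0 to 8.94 CPM of Ucp1. The GFP hearts L5 and L1, the highest for Adrb3 at 1.24 and 1.07 CPM, had 2.98 and 3.47 CPM of Adipoq and 6.40 and 8.94 CPM of Ucp1. Their part in the difference was not tested. Without L1 and L5 the difference was -0.204 CPM with an exact permutation p of 0.115. Adra2a had 0.0408 ± 0.0317 CPM in F11 hearts and 0.0236 ± 0.0259 CPM in GFP hearts (exact permutation p = 0.245), levels under what a count of 0 allows.

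**Figure D4:**
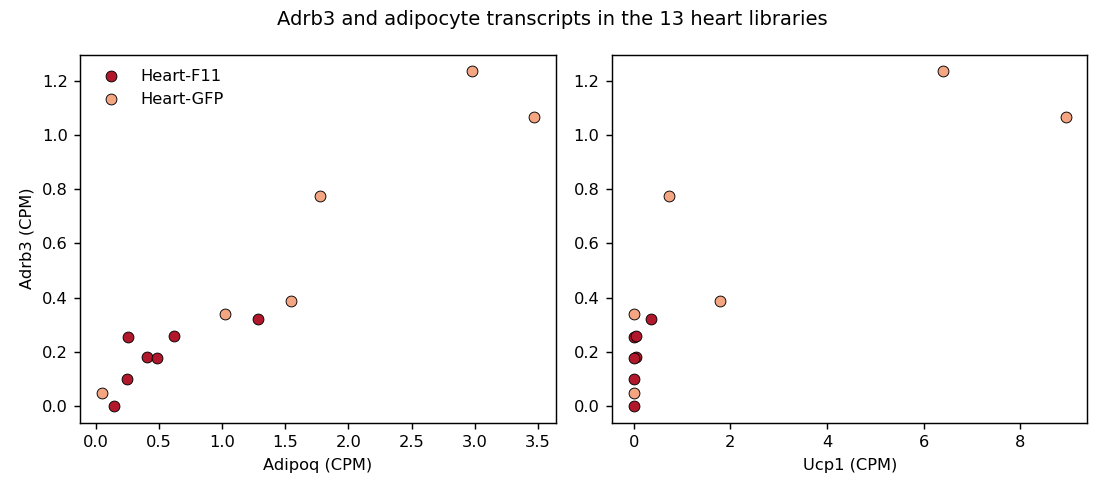
Each point is a heart library, with Adrb3 in CPM on the vertical axis and Adipoq (left) or Ucp1 (right) in CPM on the horizontal axis, coloured by vector. The GFP libraries with the most Adrb3, 1.07 and 1.24 CPM, are also those with the most Adipoq and Ucp1.

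In adipose tissue, Adrb3 averaged 241.1 ± 195.5 CPM in F11 samples and 227.7 ± 195.2 CPM in GFP samples (SD, n = 8 each). The log2 difference was 0.08 (SE 0.60) and its 95% interval ran from -1.20 to 1.36, so differences of more than 2-fold in either direction lie inside it. The sign was not stable, since it was 0.51 without L140 and -0.26 without L145. Adrb1 averaged 3.21 ± 2.09 CPM in F11 and 3.51 ± 1.88 CPM in GFP samples, with a log2 difference of -0.12 (95% interval -0.91 to 0.66) that was 0.12 without L140. L140 carried cardiomyocyte markers at 8.91% of the median of hearts, Adrb1 at 25.5% of it and Adra1b at 6.48% of it. Adra1b differed by 0.00 (95% interval -0.97 to 0.97). Its highest levels, 3.46 CPM in L145 (F11) and 3.37 CPM in L136 (GFP), were in libraries rich in hepatocyte markers. The part of other tissue in these levels was not tested.

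Adra1a and Adra1d were the receptors with the tightest estimates in adipose tissue. Adra1a averaged 11.3 ± 3.34 CPM in F11 and 12.3 ± 1.80 CPM in GFP samples, a log2 difference of -0.12 (95% interval -0.45 to 0.20). Adra1d averaged 6.40 ± 0.965 CPM in F11 and 5.78 ± 0.851 CPM in GFP samples, a log2 difference of 0.15 (95% interval -0.08 to 0.38). Adra2a had 0.540, 0.825 and 1.34 CPM in F11 and 0.523, 0.632 and 0.874 CPM in GFP samples, a log2 difference of 0.31 (SE 0.21, 95% interval -0.13 to 0.74). Its highest value was that of L142, and without L142 the difference was 0.15. Adra2c differed by 0.14 (95% interval -1.19 to 1.47), and by -0.91 without L142. Every adjusted p of the 7 was 0.9996 by edgeR.

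The vector difference itself was not shown to differ between tissues for any receptor. The interaction, F11 over GFP in heart minus the same in adipose tissue, passed in 4 of 16526 genes (0.0242%) and in 0 of 7 receptors. At an unadjusted p of 0.05, 1228 genes (7.43%) and none of the receptors passed, and DESeq2 called 172 genes. It was -1.84 (SE 1.22, adjusted p = 0.809) for Adrb3 and -0.33 (SE 0.48, adjusted p = 0.964) for Adra1b.

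Of the 10 lists of signalling genes, 1 gene passed between vectors in heart and none in adipose tissue, of 78 and 77 tested. The share in heart was 1.28%, near the 0.872% of all genes called in heart, and 0% of all genes were called in adipose tissue. Crem, a cAMP-inducible transcription factor gene, had 7.22 ± 0.810 CPM in F11 hearts and 9.51 ± 0.962 CPM in GFP hearts. It fell by 0.40 on the log2 scale (SE 0.08, adjusted p = 0.0247). The call was lost in 5 of the fits that left out 1 heart library (L5, L8, L9, L33 or L39), with adjusted p up to 0.0674, and without L1 and L5 (adjusted p = 0.12). Among 8 tested cAMP-responsive genes it was the only one called. Next in heart were the phosphodiesterase gene Pde4b at -0.29 (SE 0.08, adjusted p = 0.112) and Plin1 at -1.65 (SE 0.46, adjusted p = 0.122), neither of which passed this test. With DESeq2 their adjusted p was 0.0427 and 0.00572. That of Plin1 was 0.0421 in 1 edgeR fit over all libraries and 0.02 without L8, and that of Pde4b was 0.0286 without L31.

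In heart the medians of the 10 lists lay between -0.12 and 0.07 on the log2 scale, beside -0.01 over all genes. In adipose tissue 9 of the lists had medians between -0.12 and 0.08. The cardiac substrates of protein kinase A had a median of -2.76 there, with Pln at -4.04 (SE 1.19, adjusted p = 0.939), and the cardiac transcripts of the GFP library L140 moved with them. Without L140, Pln was at -0.39.

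Within adipose tissue Adrb3, Adrb1 and Adra1b moved together from library to library. The library with the least Adrb3, L148 (F11, 34.96 CPM), also had the least Adrb1 (1.60 CPM) and the least Adra1b (0.520 CPM). L145 (F11) had the most Adrb1 and Adra1b, 7.92 and 3.46 CPM, and 597 CPM of Adrb3. Over the 16 libraries, with log2(CPM + 0.5) as deviation from the mean of the vector group, Adrb1 and Adrb3 had a Pearson r of 0.890 and a Spearman rho of 0.927 (permutation p = 2e-05 and 1e-05, the second the smallest that 100000 permutations can give, adjusted 0.00062 and 0.00031 over 31 pairs). The r was 0.867 within F11, 0.915 within GFP, 0.867 without L140 and L142 and 0.904 without L148 and L135, the libraries farthest from the median of Adrb3.

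Adra1b and Adrb1 had a Pearson r of 0.847 and a rho of 0.827 (adjusted permutation p = 0.00062 and 0.00279), and 0.733 without L145 and L140. Adra1b and Adrb3 had an r of 0.786 and a rho of 0.791 (adjusted permutation p = 0.00362 and 0.00506), and 0.844 without L148 and L135. Without L140 and L142 the r was 0.813 for Adra1b with Adrb1 and 0.746 for Adra1b with Adrb3. These were the only 3 pairs past an adjusted p of 0.05, of 21 pairs in adipose tissue and 10 in heart. Genes outside the family had higher r in adipose tissue, up to 0.974 with Adrb3, 0.957 with Adrb1 and 0.965 with Adra1b. The pairs were not set against the r of all genes, so the relation is not shown to be particular to receptors. In heart Adra1b and Adrb1 had an r of 0.04 over both vector groups, with -0.675 within F11 hearts and 0.761 within GFP hearts. Adra1a and Adrb3 had an r of -0.41 in adipose tissue (adjusted permutation p = 0.315).

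**Figure D5:**
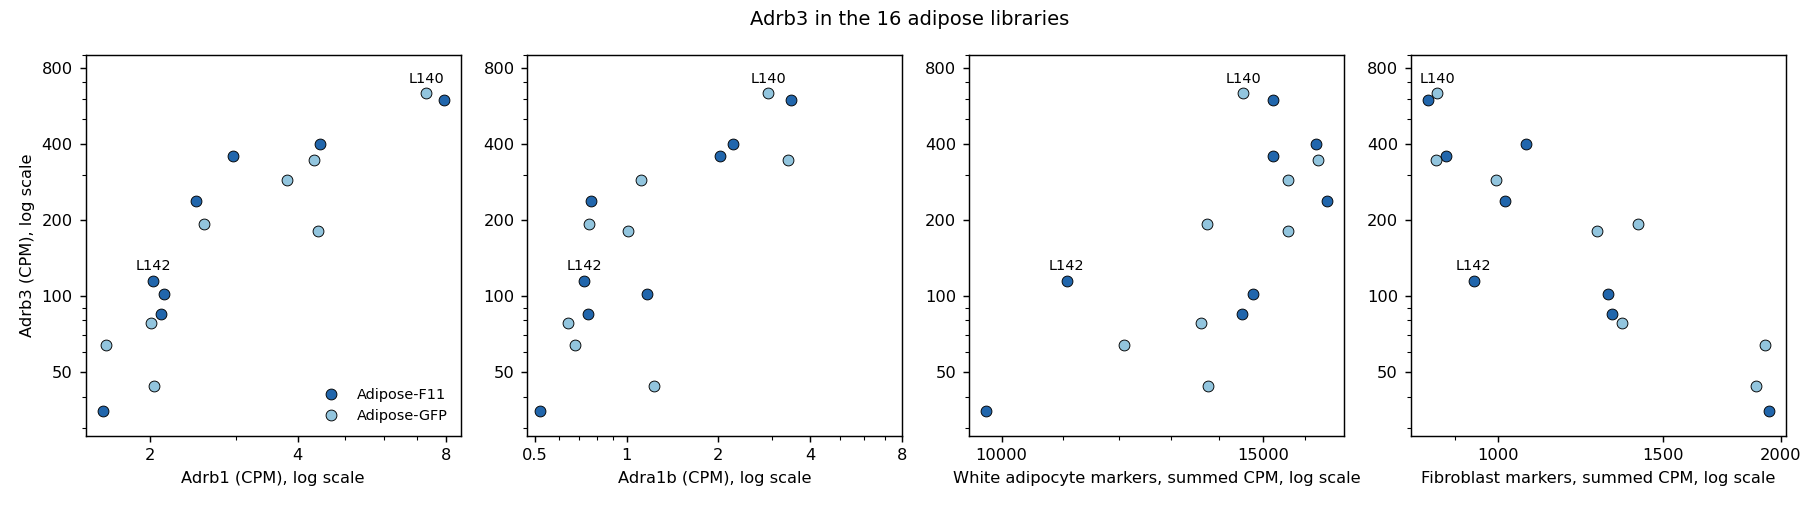
Each point is an adipose library, with Adrb3 in CPM on the vertical axis against Adrb1, Adra1b, summed white adipocyte markers and summed fibroblast markers in CPM on the horizontal axes, all logarithmic. Adrb3 is higher where Adrb1 and Adra1b are higher and lower where summed fibroblast markers are higher, in F11 and GFP samples alike.

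The spread of Adrb3 was wider than that of adipocyte markers. From the lowest to the highest library Adrb3 covered an 18.1-fold range, Adipoq a 3.15-fold range and the summed white adipocyte markers a 1.70-fold range. Per 1000 CPM of Adipoq, Adrb3 still ran from 44.4 CPM in L135 to 292 CPM in L140, 6.58-fold. In bulk tissue, fewer adipocytes and less Adrb3 RNA per adipocyte cannot be told apart.

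Adrb3 was then set against 16 lists of cell type markers over the 16 adipose libraries, a relation chosen after the values were seen. It was lower where summed fibroblast markers were higher, with r = -0.883 and rho = -0.862 (permutation p = 3e-05 each, adjusted over the 16 lists 0.00048 each), and r was -0.838 without L148 and L133, -0.870 within F11 and -0.928 within GFP. Col1a1 covered the widest range of CPM in that sum, 218.5 to 1097 CPM with F11 and 166 to 1091 CPM with GFP. Dcn ran from 406.1 to 567.1 CPM with F11 and from 446 to 585.6 CPM with GFP. The relation was computed on the sum only. Macrophage markers, which ran from 468 CPM in L140 to 2709 CPM in L148, had r = -0.801 and rho = -0.821 (adjusted permutation p = 0.00149 and 0.002). White adipocyte markers had r = 0.690 and rho = 0.665 (adjusted permutation p = 0.00582 and 0.0174). Endothelial markers had r = 0.699 and rho = 0.665 (adjusted permutation p = 0.00805 and 0.0174).

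Markers of sympathetic nerves, the source of noradrenaline in fat, had r = -0.815 and rho = -0.741 with Adrb3 (adjusted permutation p = 0.00064 and 0.00779). Their summed level was only 2.41 to 5.68 CPM, and Th and Dbh, the defining enzymes, had medians of 0 in both adipose groups. Slc18a2, Slc6a2 and Npy made up most of it. Skeletal muscle markers had r = 0.656 and rho = 0.685 (adjusted permutation p = 0.00508 and 0.017). Brown adipocyte markers had r = -0.595 and rho = -0.556 (adjusted permutation p = 0.0377 and 0.0641). Acta1 made up most of the skeletal muscle sum, at 7.191 to 20.31 CPM with F11 and 8.132 to 65.19 CPM with GFP. The highest sum, 66.08 CPM, was that of L140, which carried cardiac transcripts. In the brown sum Otop1 had the highest medians, 4.146 CPM with F11 and 11.22 CPM with GFP. Ucp1 had medians of 0.0809 CPM with F11 and 0.122 CPM with GFP. Without L140 and L142, r was 0.700 for skeletal muscle markers and -0.857 for brown adipocyte markers. The other 9 lists had adjusted permutation p above 0.05. Without the 4 libraries rich in hepatocyte markers, r was 0.896 for Adrb1 with Adrb3, 0.729 for Adra1b with Adrb3 and 0.855 for Adra1b with Adrb1 (n = 12). The part of cell composition in the levels of Adrb3, Adrb1 and Adra1b was not tested.

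Transcripts of the circadian clock, which keep daily time in most tissues, also moved with Adrb3 in adipose tissue, a relation sought after the values were seen. The 4 libraries with the most Adrb3, L145, L144 and L146 (F11) and L140 (GFP), had 56.5, 45.0, 49.2 and 59.1 CPM of Dbp, an output gene of the clock, and 3.15, 4.55, 4.43 and 3.11 CPM of Arntl, a core clock activator. The libraries with the least Adrb3, L148 (F11), L135 and L133 (GFP), had 24.2, 23.8 and 16.6 CPM of Dbp and 10.96, 9.74 and 12.6 CPM of Arntl. On the log2 scale over 16 libraries, Dbp had r = 0.802 and rho = 0.815 with Adrb3 (permutation p = 0.00033 and 0.00025, adjusted over 2 genes 0.00033 and 0.00025), and r was 0.911 within F11, 0.769 within GFP and 0.699 without L140 and L145, the libraries farthest from the median of Dbp. Arntl had r = -0.885 and rho = -0.906 (permutation p = 1e-05, the smallest that 100000 permutations can give, and 2e-05, adjusted 2e-05 and 4e-05), and r was -0.961 within F11, -0.835 within GFP and -0.832 without L140 and L145. The hour of tissue collection is not given in the labels, and its part in the receptor levels was not tested.

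Genes whose levels ran most like each receptor were listed by Pearson r of the same deviations, as a description. Over 16 adipose libraries and 10790 genes, Adrb3 was most like Opn3 (r = 0.974), an opsin gene, Mogat1 (r = 0.973), an acyltransferase of triglyceride synthesis, and Pde1a (r = 0.973), a phosphodiesterase. Adrb1 was most like Slc22a23 (r = 0.957), Map4k5 and Txlng, and Adra1b most like Scp2 (r = 0.965), a carrier of sterols and lipids in peroxisomes, Slc25a22 and Mgst1. Adra1a was most like Eloa (r = 0.922), Ulk2 and Gsto1, and Adra1d, with the lowest values, most like Tigd2 (r = 0.815), Lgals1 and Spata6. Without L140 and L142 the r with Adra1d was 0.78 for Tigd2, 0.562 for Lgals1 and 0.564 for Spata6.

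In the 13 hearts, over 10171 genes, Adra1a was most like Lrtm1 (r = 0.941), Cdk19 and Foxj3, and Adra1b most like H6pd (r = 0.919), Zfp809 and Atn1. Adrb1 was most like Zfp608 (r = 0.904), Mtrr and Abcc5. Adra1d was most like Spryd3 (r = 0.849), Gin1 and Dcun1d3. No gene was among the 3 most like more than 1 receptor, and the top 3 of Adra1a, Adra1b, Adra1d and Adrb1 differed between tissues.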

How the data were processed

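RNA was purified from heart and white adipose tissue, made into mRNA libraries and sequenced, per the labels' protocols. The authors deposited estimated counts for each gene; the submitters' processing notes name kallisto 0.46 and GRCm38.p6. They carry no scaling to library size, and 30.8% are not whole, as reads shared by similar transcripts are divided by estimation. How transcripts were summed to genes, and the strand mode, is not given in the sources used here. Of 30 labelled libraries 29 were analysed; L10, a GFP heart, is not analysed here. Sample titles gave the groups. Within a group, all pairs of libraries differed by more than sampling noise (lowest chi-square per degree of freedom 3.36).

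Symbols and coordinates came from the GENCODE annotation of GRCm38. Estimated counts were rounded and tested with edgeR 4.0.16 in R 4.3.3 (filterByExpr, TMM, robust quasi-likelihood test, 2-sided, Benjamini-Hochberg adjustment over all genes tested, threshold 0.05). The vectors were compared per tissue, and tissues and the interaction in 1 fit over all libraries. CPM are on 1 TMM scale over all libraries, and levels between genes are CPM per kb of the union of exons. Mitochondrial transcripts took 33% of heart counts and 5 to 6% of adipose counts, which stays in the library size. Receptors too low for the heart fit were compared by exact permutation. Where a library had no count, 3 counts were taken as the upper limit; such limits and the intervals of counts reflect counting error alone.

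Alternatives were other size factors, other filters, DESeq2 1.42.0, limma 3.58.1 voom, a threshold of 0.1, 1 fit over all libraries, mitochondrial transcripts left out, hearts L1 and L5 left out, and each library left out. Fits without L140 and L142, or without hepatocyte-rich adipose libraries, and relations to clock genes, were added after seeing the data. Named were the 7 receptors, of each signalling list up to 4 called genes by size or else the 2 of lowest p, and the 3 genes most like each receptor (mean of at least 5 CPM). Not all genes taken by this rule are printed. The members and lists were chosen with earlier results of these data known. The fits were also run on simulated counts with 1 common spread for all genes, unlike these data, and the outcome is not used here.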

Additional observations from a re-analysis of the deposited data

Results flagged for a closer look

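Single libraries that stood apart from the rest of their group were sought in 56 sets of values (the level and the share of each of the 7 receptors in each of 4 groups), and 5 were found. Chance alone marks about 1 in 20 such sets. In F11 adipose samples, L142 held 2.95 CPM of Adra2c, far above the next library at 0.660 CPM, and Adra2c was 2.18% of its summed receptor level, against 0.447% in the next. The same library held 1.34 CPM of Adra2a, with the next at 0.912 CPM. L142 was also the library with 4084 CPM of epididymis markers, and the part of that tissue in its alpha2 receptor levels was not tested. L145 held 7.92 CPM of Adrb1 in the same group, with the next at 4.44 CPM, and was also first for Adrb3 in that group (597 CPM). In GFP adipose samples, Adra1b was 1.86% of the summed receptor level in L135, with the next library at 0.917%, and L135 had the least Adrb3 of that group (44.1 CPM).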

How the results depend on the processing

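The 6 receptors called between tissues kept their direction and their call under all 38 or 39 alternatives run in each vector group, and the median over all genes moved by under 0.1 (log2) with other size factors. No paired analysis was possible because nothing in the labels ties a heart to an adipose sample. Of the gene counts, heart (128) became 377 with DESeq2, 196 with voom, 307 at a threshold of 0.1, 30 in 1 fit over all libraries and 51 without L1 and L5, and 87 to 179 with 1 library left out. Adipose tissue (0) became 6 with DESeq2 and 4 in 1 fit over all libraries. The interaction (4) became 2 with no filter, 172 with DESeq2, 24 with voom and 9 without L140 and L142, and 1 to 6 with 1 library left out. With the longest transcript, the Adra1b share was 33.8% in F11 and 37.7% in GFP hearts. The Adrb3 difference in heart was -0.204 CPM without L1 and L5 and -0.577 to -0.340 CPM with 1 library left out; without L31 alone its exact permutation p was 0.0541. The causes of these changes were not tested.

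Reversals were limited to values that had not passed a test. With voom, Adra2c was -0.58 between vectors in adipose tissue, 0.095 between tissues in GFP and 0.86 in F11 mice, and the Adrb1 interaction -0.0096. The Adra2c interaction was -0.0031 with upper quartile factors and -0.0061 without mitochondrial transcripts. Without L140 and L142, Adrb1 was 0.19 in adipose tissue, its interaction -0.29, Adra2c between tissues in F11 mice 0.91 and Akap6 in adipose tissue 0.23 (DESeq2 0.25, voom 0.25, all fits -1.58 to 0.25 with 1 library left out). Without hepatocyte-rich libraries, Adra1b was -0.21 and Adrb3 -0.28 in adipose tissue. With 1 library left out, log2 values ran from -0.12 to 0.013 (Adra1a, heart), -0.31 to 0.30 (Adra1b, adipose), -0.64 to 0.0020 (Adra1b, interaction), -0.069 to 0.36, -0.91 to 0.35 and -0.18 to 1.05 (Adra2c, heart, adipose and interaction), -0.32 to 0.88 and -0.40 to 0.029 (Adra2c between tissues, F11 and GFP), -0.46 to 0.12 and -0.22 to 0.39 (Adrb1, adipose and interaction) and -0.26 to 0.51 (Adrb3, adipose). Low counts limit Adra2a and Adrb3 in heart.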
